A study of Homo sapiens with 6 samples.

Results

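The genes described here are 10 transcription factors that control steroid-forming genes, namely the nuclear receptors NR5A1, NR5A2, NR0B1, NR4A1, NR4A2, NR4A3, NR2F1 and NR2F2 and the zinc finger factors GATA4 and GATA6. They were taken by name, and all 10 of 10 have a row among the 34869 genes of the deposited table. Expression was measured in NCI-H295R, an established line from a human adrenocortical carcinoma that makes adrenal steroids and serves as a model of the adrenal cortex. A lentivirus brought in either a hairpin RNA against TPD52 (shTPD52, the knockdown, 3 libraries) or a hairpin without a target (shCtrl, the control, 3 libraries). Every library therefore comes from transduced cells of 1 tumour line grown in serum and insulin-transferrin-selenium, and the labels name neither the number of hairpins nor the time after transduction.

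In the adrenal cortex NR5A1 (SF-1) binds as a monomer to an extended AGGTCA motif in front of most steroidogenic genes and activates them. NR0B1 (DAX-1) lacks the usual DNA-binding domain and represses NR5A1 by binding to it. The NR4A receptors are rapidly induced by ACTH, angiotensin II and calcium signals and bind a related AGGTCA motif in genes such as HSD3B2 and CYP11B2. The COUP-TF receptors NR2F1 and NR2F2 bind pairs of the same motif and can compete with NR5A1, and GATA4 and GATA6 act beside it at GATA motifs.

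With the TPD52 hairpin, NR0B1 fell to 0.612 times and NR4A1 to 0.628 times its control level, while NR5A1 was at 1.02 times its control level and did not pass the test. In bulk RNA, fewer cells with a transcript and less of it per cell cannot be told apart. By limma with Benjamini-Hochberg adjustment, 2 of the 8 tested members fell, none rose and 6 did not pass, and at an unadjusted p under 0.05 the counts were 0 higher and 4 lower. Of all 12782 tested genes, 12.7% were called lower, 5.63% higher and so 18.3% in either direction. The 8 had a median log2 fold change of -0.41, and all tested genes one of -0.11. Values given as times or -fold are ratios of mean FPKM, knockdown over control. Log2 fold changes are knockdown over control on the log2(FPKM + 0.5) scale. With median-ratio scaling again 2 members were lower and 0 higher, where 8.12% of all genes were lower and 8.47% higher. NR2F1 and NR5A2 lay under the filter of 1 FPKM.

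Several facts of the libraries stand beside these values. TPD52 itself, under the filter, went from 1.30 ± 0.12 FPKM (SD, n = 3) in shCtrl to 0.640 ± 0.013 FPKM (SD, n = 3) in shTPD52, and when added to the fit it fell by 0.65 in log2 units (limma adjusted p = 0.0218, and 0.067 without a filter). Library totals, estimated from the steps of low values, were between 29551600 and 38403800 reads. On the first principal component, which held 61% of the variance, shTPD52 replicate 2 lay at 0.291, between the other shTPD52 libraries (27.3 and 35.3) and the shCtrl libraries (-24.1 to -16.4). Genes with many exon bases, counted over all annotated transcripts, were lower in shTPD52. The median log2 fold change was -0.26 in the longest quartile of genes (6917 bases of exon or more) and 0.08 in the shortest (up to 2508 bases). In the longest quartile the medians were -0.30, -0.057 and -0.43 in knockdown replicates 1 to 3. All 10 adrenocortical markers were above 1 FPKM on average. Marker sums were at most 1.28 FPKM for fibroblasts, 0.137 for endothelium and 0.166 for leukocytes. Of the adrenal medulla markers 4 of 6 have a row, TH and PNMT among them at no more than 0.123 FPKM in any library, and the granin CHGB fell from 45.8 ± 2.49 to 36.1 ± 1.94 FPKM (n = 3 each, limma adjusted p = 0.029), passing in 9 of 17 alternatives. The other granin, CHGA, was under the filter at 0.357, 0.173 and 0.484 FPKM in control and 1.13, 0.480 and 0.870 FPKM in knockdown libraries, with overlap. Mitochondrial genes took at most 19% of reads in shCtrl and 20.2% to 24.9% in shTPD52. With FPKM rescaled outside mitochondrial genes NR0B1 had a log2 change of -0.60 (limma adjusted p = 0.014) and NR4A1 one of -0.60 (limma adjusted p = 0.0241). What part these facts of the libraries had in the results was not tested.

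**Figure D1:**
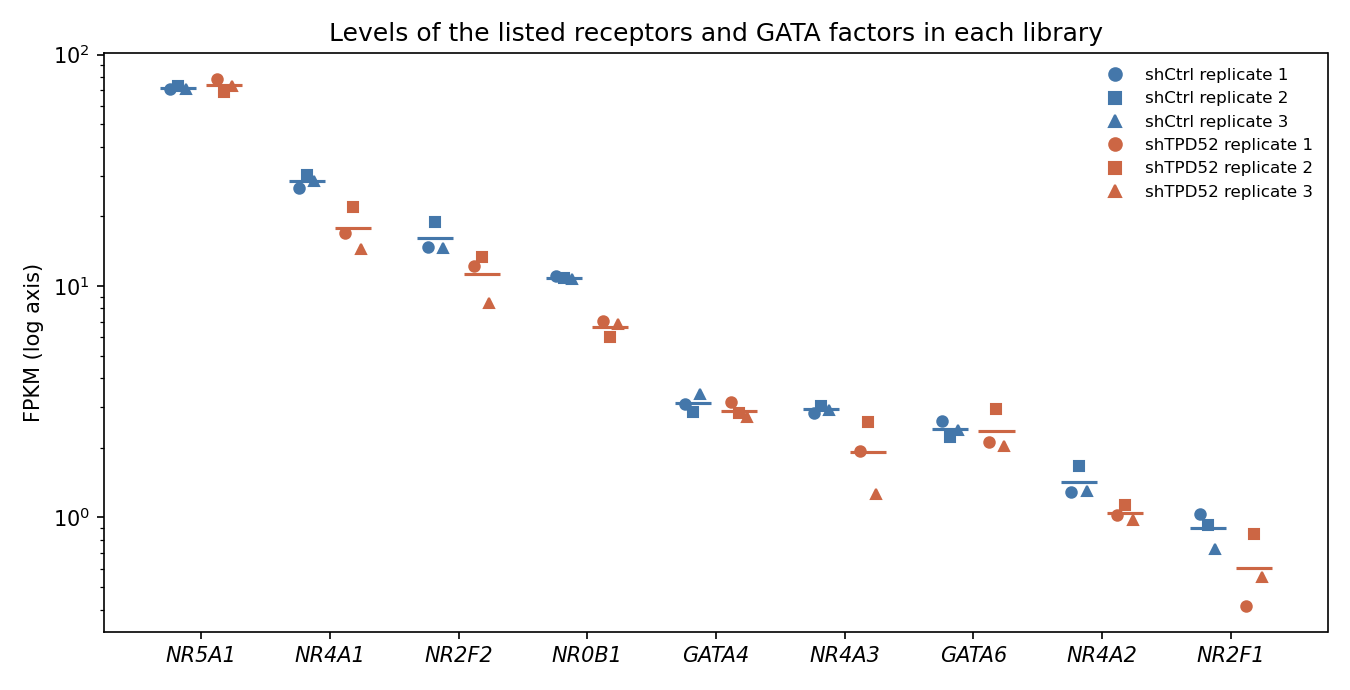
FPKM of 9 of the 10 genes on a log axis, with 1 point per library (shape gives the replicate number) and a line at each group mean; NR5A2, at 0 in several libraries, is not drawn. NR5A1 was the highest in both groups, and the NR0B1 and NR4A1 points of shTPD52 all lie under those of shCtrl. For NR4A1, NR4A2, NR4A3, NR2F1, NR2F2 and GATA6 shTPD52 replicate 2 is the highest of its group.

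The genes spanned a wide range of levels. FPKM is scaled to a gene length, here from an annotation release that is not named, so the order between genes depends on those lengths. In shCtrl the order of mean levels was NR5A1 (71.8 FPKM), NR4A1 (28.4), NR2F2 (16.1), NR0B1 (10.9), GATA4 (3.13), NR4A3 (2.93), GATA6 (2.41), NR4A2 (1.42), NR2F1 (0.897) and NR5A2 (0.00958). The ranges of GATA4 and NR4A3 overlapped there, and all other neighbours in this order were apart. In shTPD52 NR4A3 (1.92 FPKM) stood under GATA6 (2.37), and the ranges of GATA4, GATA6 and NR4A3 overlapped from each to the next. Among all 48 nuclear receptor genes NR5A1 had the highest mean over the 6 libraries, 72.7 FPKM, and NR1H2 (LXR-beta) followed at 23.9 and NR4A1 at 23.1.

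NR5A1 (ENSG00000136931, GRCh38 chromosome 9, 124481236 to 124507430, minus strand) measured 70.9, 73.2 and 71.3 FPKM in control replicates 1 to 3. In knockdown replicates 1 to 3 it stood at 78.2, 69.2 and 73.4 FPKM, so that the groups overlapped, with shTPD52 replicate 2 the lowest of all and shTPD52 replicate 1 the highest. At least 7661 reads lie behind each value. The log2 fold change was 0.03 (SE 0.07, limma adjusted p = 0.76) with a 95% interval from -0.14 to 0.21, and its sign turned with quantile normalization and without shTPD52 replicate 1. NR5A2 (LRH-1), the paralog that serves ovary, liver and pancreas, was at 0 in 3 libraries and at most at 0.0287 FPKM, or 8 reads, in the others. No fold is given for it.

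NR0B1 (ENSG00000169297, GRCh38 chromosome X, 30304206 to 30309598, minus strand) measured 11.1, 10.8 and 10.7 FPKM in control replicates 1 to 3. In knockdown replicates 1 to 3 it stood at 7.06, 6.01 and 6.88 FPKM. The groups did not overlap, and the lowest value came from shTPD52 replicate 2. The values rest on 728 to 869 reads in shCtrl and 459 to 582 in shTPD52. NR0B1 fell by 0.67 in log2 units (SE of 0.09, limma adjusted p = 0.00886), with a 95% interval of -0.88 to -0.46. It lies in the shortest quartile of exon lengths (2203 bases), whose median moved the other way, and after removal of the length and GC trend it had a log2 change of -0.71 (limma adjusted p = 0.00251). The call was held in 16 of 17 alternatives and ended without shCtrl replicate 3 (limma adjusted p = 0.0613).

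NR5A1 is a known activator of the NR0B1 gene, and the bases before the RefSeq start of NR0B1 are shown because its RNA fell while NR5A1 RNA did not pass the test. HSD3B2, a gene that NR5A1 and NR4A1 are known to drive, is shown for comparison because its RNA rose. NR4A3 is shown as a member of the cyclic AMP responsive NR4A group. Each run is the 250 bases before the start on the gene's strand, from RefSeq on GRCh38.p14 (NR0B1 chrX:30309391-30309640, minus strand, HSD3B2 chr1:119414681-119414930, plus strand, NR4A3 chr9:99821635-99821884, plus strand). Capitals mark AGGTCA (receptor core), GATAA (GATA) and TGACG (the core of a cyclic AMP response element) on either strand.
NR0B1: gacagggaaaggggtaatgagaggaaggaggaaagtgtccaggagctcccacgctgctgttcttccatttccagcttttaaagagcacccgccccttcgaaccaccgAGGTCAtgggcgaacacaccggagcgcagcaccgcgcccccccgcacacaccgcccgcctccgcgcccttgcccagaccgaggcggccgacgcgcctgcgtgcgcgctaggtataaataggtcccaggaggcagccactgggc
HSD3B2: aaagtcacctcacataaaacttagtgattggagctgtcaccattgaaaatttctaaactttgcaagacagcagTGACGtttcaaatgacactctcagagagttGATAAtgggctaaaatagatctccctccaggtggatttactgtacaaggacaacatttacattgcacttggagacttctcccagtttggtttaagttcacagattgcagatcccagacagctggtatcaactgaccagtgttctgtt
NR4A3: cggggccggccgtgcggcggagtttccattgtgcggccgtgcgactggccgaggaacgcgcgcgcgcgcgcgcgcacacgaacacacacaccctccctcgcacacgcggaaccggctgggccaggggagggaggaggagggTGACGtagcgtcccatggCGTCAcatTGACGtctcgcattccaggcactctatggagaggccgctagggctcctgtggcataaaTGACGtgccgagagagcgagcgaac

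The NR0B1 run holds 1 AGGTCA, starting at -143 from the start, and no GATAA or TGACG. By the gene coordinates given above, which reach 30309598, most of that run lies inside the gene, the AGGTCA included. The HSD3B2 run holds GATAA at -147 and TGACG at -177 and no AGGTCA. The NR4A3 run holds 4 TGACG matches, at -109, -91, -83 and -25. Among the windows of NR4A3 and NR4A1 it holds the most of them, and NR4A2 has no window. The 2 windows of NR4A1, the NR4A gene that fell, hold none. They end at 52022831 and 52037714, while the gene runs to 52059507, so the bases before any start further downstream were not searched. Over the 35116 promoter windows of the RefSeq table, 12.1% hold AGGTCA, 3.44% the extended AAGGTCA that contains it, 20.4% GATAA and 21.2% TGACG. Windows matched 8 of the 10 genes, 12 windows in all, and 2 of them hold AGGTCA, 0 AAGGTCA, 3 GATAA and 2 TGACG. All motif hits named here are matches of letters only. Some windows lie partly (as for NR4A3) or wholly (as for NR2F2) inside the span given for the gene.

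The NR4A receptors were all lower on average in shTPD52. NR4A1 (Nur77, ENSG00000123358, GRCh38 chromosome 12, 52022832 to 52059507, plus strand) stood at 26.7, 30.1 and 28.4 FPKM in control replicates 1 to 3. It stood at 17.0, 21.9 and 14.5 FPKM in knockdown replicates 1 to 3. The groups did not overlap, and shTPD52 replicate 2 was nearest to the controls. NR4A1 fell by 0.68 in log2 units (SE of 0.14, limma adjusted p = 0.022), with a 95% interval of -1.0 to -0.35. The gene has 7295 bases of exon over all its annotated transcripts, which need not be the length of any 1 of them. By this measure the gene lies in the longest quartile, where the median was -0.26. After removal of the length and GC trend it had a log2 change of -0.38 (limma adjusted p = 0.0605), no longer past the threshold. Its call was held in 11 of 17 alternatives and ended also without a filter, without any 1 shCtrl library and without shTPD52 replicate 1 (limma adjusted p up to 0.0955). Another gene on the opposite strand, AC025259.3, shares 10.3% of its exon bases and was at no more than 0.893 FPKM in any library.

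NR4A3 (NOR-1, chromosome 9, 99821855 to 99866891, plus strand) stood at 2.82, 3.05 and 2.92 FPKM in control replicates 1 to 3 and at 1.94, 2.57 and 1.26 FPKM in knockdown replicates 1 to 3. The groups did not overlap, yet the spread in shTPD52 (SD 0.656, n = 3) was far wider than in shCtrl (SD 0.111, n = 3). Its log2 change of -0.54 (SE 0.19, limma adjusted p = 0.0859) did not pass. NR4A2 (Nurr1, chromosome 2, 156324432 to 156342348, minus strand) measured 1.29, 1.68 and 1.31 FPKM in shCtrl and at 1.03, 1.13 and 0.979 FPKM in knockdown replicates 1 to 3. It did not overlap between groups either, and its log2 change of -0.31 (SE 0.14, limma adjusted p = 0.141) did not pass. The ratios of the 3 receptors to each other overlapped between groups, and 3 libraries a group cannot show that they were stable. The ratio of NR4A1 to NR4A2 was 20.1 ± 1.97 in shCtrl and 17.0 ± 2.32 in shTPD52 (n = 3 each, exact permutation p = 0.2, two-sided), with 2 knockdown libraries under every control. The ratio of NR4A3 to NR4A2 was 2.08 ± 0.23 and 1.82 ± 0.50 (n = 3 each, exact permutation p = 0.7). The ratio of NR4A1 to NR4A3 was 9.68 ± 0.22 in shCtrl and 9.60 ± 1.65 in shTPD52 (n = 3 each, exact permutation p = 1.0, two-sided), with shTPD52 replicate 3, at 11.5, above every control and the other knockdown libraries below.

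The COUP-TF genes were led by NR2F2 (COUP-TFII, chromosome 15, 96325938 to 96340263, plus strand). It stood at 14.8, 18.9 and 14.7 FPKM in control replicates 1 to 3 and at 12.2, 13.3 and 8.45 FPKM in knockdown replicates 1 to 3. The groups did not overlap, with shTPD52 replicate 3 the lowest. Its log2 change of -0.51 (SE 0.18, limma adjusted p = 0.0762) did not pass and went to -0.31 after removal of the length and GC trend. NR2F1 (COUP-TFI, chromosome 5, 93583224 to 93594615, plus strand) was at 1.04, 0.925 and 0.729 FPKM in shCtrl and at 0.416, 0.846 and 0.556 FPKM in knockdown replicates 1 to 3, so that the groups overlapped through shTPD52 replicate 2. In the fit without a filter it had a log2 change of -0.35 (SE 0.20, limma adjusted p = 0.395).

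GATA4 (chromosome 8, 11676959 to 11760002, plus strand), a factor of the fetal adrenal and gonad, stood at 3.11, 2.85 and 3.43 FPKM in shCtrl and at 3.15, 2.83 and 2.71 FPKM in knockdown replicates 1 to 3. GATA6 (chromosome 18, 22169443 to 22202528, plus strand), the main GATA factor of the adult adrenal cortex, stood at 2.61, 2.23 and 2.40 FPKM in shCtrl and at 2.13, 2.95 and 2.04 FPKM in knockdown replicates 1 to 3. Both groups overlapped for each gene, and for GATA6 both the highest and the lowest value of the 6 were in shTPD52. The log2 fold change was -0.09 for GATA4 (95% interval -0.35 to 0.16, limma adjusted p = 0.556). For GATA6 it was -0.03 (95% interval -0.37 to 0.31, limma adjusted p = 0.893). Both signs turned with median-ratio scaling, so the data give neither gene a direction. Antisense genes share 6.1% (GATA6-AS1) and 8.1% (AC091588.3) of the GATA6 exon bases, and without the strand setting their reads cannot be told apart. The tested relatives GATA2, GATA3 and the cofactor gene ZFPM1 did not pass either (limma, 0 of 3 in each direction, also 0 at an unadjusted p under 0.05).

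**Figure D2:**
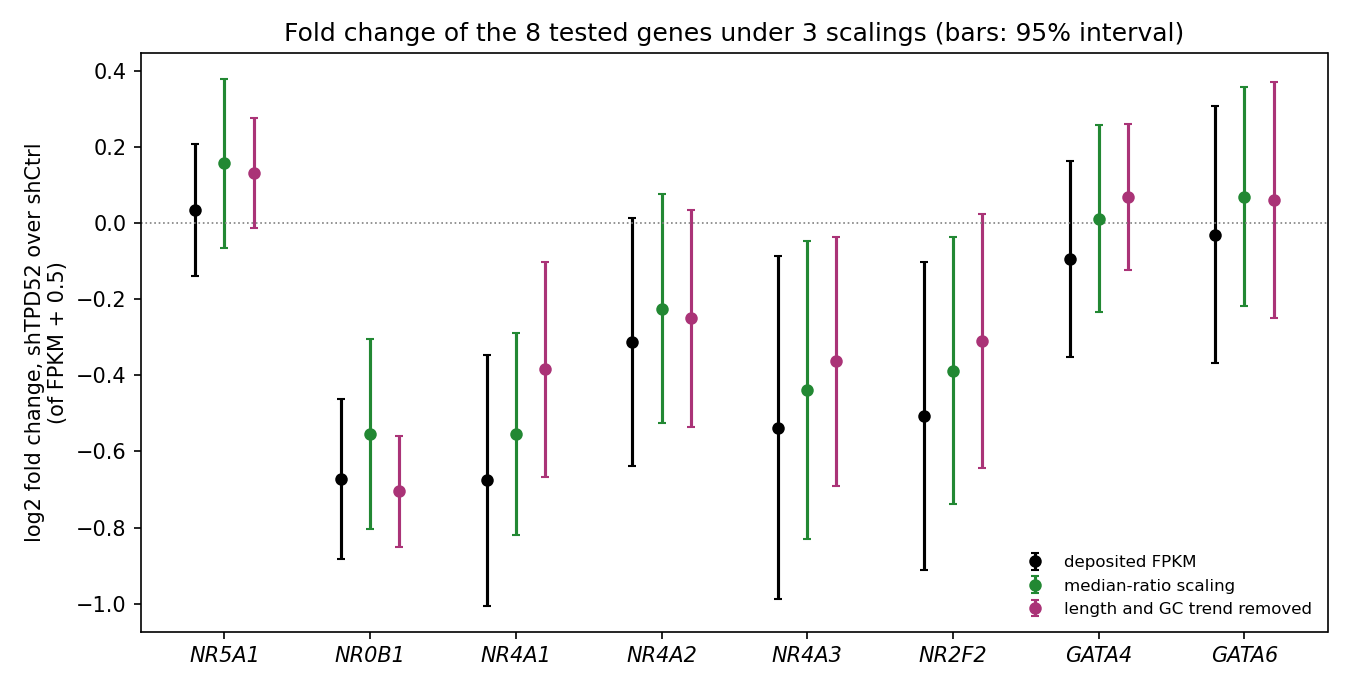
Log2 fold change of FPKM + 0.5, shTPD52 over shCtrl, with its 95% interval from limma (n = 3 each) for the 8 tested genes under the deposited scaling, median-ratio scaling and removal of the length and GC trend. NR0B1 stays between -0.71 and -0.56 under the 3, while NR4A1 moves from -0.68 to -0.38.

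The library that stands apart bears on the genes unequally. Without shTPD52 replicate 2, a fit over 5 libraries, 4 members were lower, and calls rose over all genes too, to 32.9% lower and 12.6% higher. NR4A1 then had a log2 change of -0.83 (limma adjusted p = 0.0014), NR4A3 of -0.73 (limma adjusted p = 0.00862) and NR2F2 of -0.63 (limma adjusted p = 0.0219), each larger than with all 6 libraries. NR0B1 had -0.61 (limma adjusted p = 0.00152), slightly smaller. Without shCtrl replicate 3 no member passed (limma, 0 in each direction), and 1 did when shTPD52 replicate 1 or either other shCtrl library was left out. In those 4 fits 0.994%, 2.12%, 0.305% and 0.735% of all genes were lower and 0.775%, 1.4%, 0.376% and 0.509% higher, for shCtrl replicates 1, 2 and 3 and shTPD52 replicate 1 in turn. Without shTPD52 replicate 3, 2 members passed, where 4.5% of all genes were lower and 2.52% higher.

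A ratio within a library does not depend on a factor common to all genes of that library, and so each gene was also set against NR5A1. A trend on length does not cancel between genes of unlike exon length, such as NR5A1 (3422 bases) and NR4A1 (7295 bases). The NR0B1 to NR5A1 ratio was 0.157, 0.148 and 0.150 in control replicates 1 to 3 and 0.0902, 0.0867 and 0.0937 in knockdown replicates 1 to 3. The 2 groups were far apart and each was tight, with a mean of 0.151 ± 0.0047 in shCtrl and 0.0902 ± 0.0035 in shTPD52 (n = 3 each). A two-sided exact permutation test gave p = 0.1, which 3 libraries against 3 cannot go below. The NR4A1 to NR5A1 ratio was 0.395 ± 0.018 in shCtrl and 0.244 ± 0.064 in shTPD52 (n = 3 each, exact permutation p = 0.1), with shTPD52 replicate 2 at 0.317. The groups did not overlap for 5 of the 7 other tested members, all lower in shTPD52, namely NR0B1, NR4A1, NR4A2, NR4A3 and NR2F2. For all genes tested 26.3% had a ratio to NR5A1 that was lower without overlap and 12.5% one that was higher. In FPKM the same 5 did not overlap, against 28.3% of all tested genes lower and 13.8% higher.

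**Figure D3:**
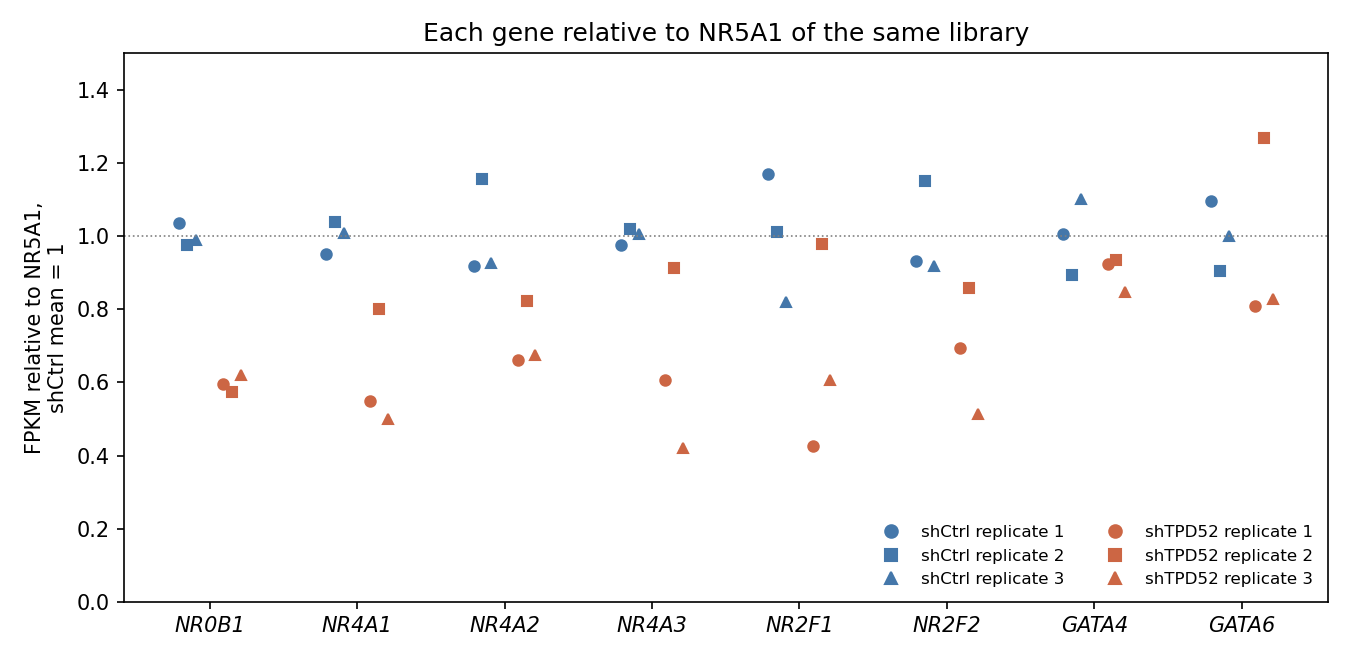
FPKM of each gene divided by that of NR5A1 in the same library and set to 1 at the shCtrl mean, with 1 point per library. The NR0B1 points of shTPD52 lie close together around a mean of 0.596, those of NR4A1, NR4A3 and NR2F2 spread widely with replicate 2 uppermost, and those of GATA4, GATA6 and NR2F1 overlap the controls.

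The genes that these factors control did not move as a block. Of 20 tested SF-1 target genes 8 rose, 12 did not pass and none fell (limma), and 10 and 2 were higher and lower at an unadjusted p under 0.05. Over all tested genes 5.63% rose, and after removal of the length and GC trend 10 of the 20 and 10.1% of all genes were higher. Their median was 0.25 on the log2 scale, where that of all tested genes was -0.11. FATE1, a cancer-testis antigen gene and the largest riser of the list, went from 4.44 ± 0.33 to 22.2 ± 2.85 FPKM (n = 3 each), 5.01-fold (limma adjusted p = 0.000884). HSD3B2, the 3-beta-hydroxysteroid dehydrogenase of the adrenal, was at 6.05, 4.94 and 6.42 FPKM in shCtrl and at 21.9, 21.9 and 20.1 FPKM in knockdown replicates 1 to 3. MC2R, the ACTH receptor, CYP19A1, aromatase, and CYP11B2, aldosterone synthase, rose by 1.47, 1.24 and 1.24 on the log2 scale. In mean FPKM these 3 rose 3.54-fold, 2.92-fold and 2.64-fold. FDX1, the ferredoxin that feeds electrons to mitochondrial steroid enzymes, rose from 24.0 ± 1.03 to 32.1 ± 2.41 FPKM (n = 3 each, limma adjusted p = 0.0202), passing in 12 of 17 alternatives. CYP21A2, the 21-hydroxylase, rose from 60.2 ± 1.03 to 77.4 ± 8.01 FPKM (n = 3 each, limma adjusted p = 0.0353), passing in 10 of 17, and its reads may be exchanged with those of a near-identical pseudogene. STAR, which moves cholesterol into mitochondria, had 136 ± 7.13 FPKM in controls and 135 ± 16.0 FPKM after knockdown (n = 3 each). CYP17A1, the 17-hydroxylase, had a log2 change of -0.36 (limma adjusted p = 0.0565) and CYP11A1, the side-chain cleavage enzyme, one of 0.35 (limma adjusted p = 0.0532). CYP11B1, under the filter, was at 0.279 ± 0.142 FPKM in controls and 0.985 ± 0.314 FPKM after knockdown (n = 3 each), and its reads may be exchanged with those of its near copy CYP11B2. Leaving out shCtrl replicate 1 or 3 left 4 risers, and leaving out shCtrl replicate 2 or shTPD52 replicate 1 left 5. Without shTPD52 replicate 2 there were 10 risers and 3 that fell, where 12.6% of all genes rose and 32.9% fell.

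A minority of the other nuclear receptors fell. Of the 40 other receptor genes 25 were tested, 7 fell, 1 rose and 17 did not pass, with a median log2 fold change of -0.20. Over all tested genes 12.7% fell. RARB and RARG, retinoic acid receptors, fell by 1.07 and 0.55 in log2 units (limma adjusted p = 0.0117 and 0.0202), passing in 13 of 16 and 12 of 17 alternatives. THRA, the thyroid hormone receptor alpha, fell from 26.8 ± 0.20 to 17.6 ± 0.72 FPKM (n = 3 each, limma adjusted p = 0.00648), and passed in 16 of 17 alternatives. NR6A1, the germ cell nuclear factor, fell by 0.80, and RXRB, the retinoid X receptor that pairs with many of these receptors, by 0.39, and both passed in 11 alternatives, of 16 and 17. With median-ratio scaling RXRB did not pass (limma adjusted p = 0.0572). The riser, NR1D2 (REV-ERB-beta), a clock repressor picked out once its values were known, had a log2 change of 0.52 (limma adjusted p = 0.0362). After removal of the length and GC trend again 7 were lower and 1 higher, where all genes tested gave 9.75% lower and 10.1% higher. With median-ratio scaling 4 were lower and 1 higher, where all genes tested gave 8.12% and 8.47%. With 1 library left out the count of lower receptors was 1, 2 and 0 for shCtrl replicates 1, 2 and 3. In these fits 0.994%, 2.12% and 0.305% of all genes were lower. For knockdown replicates 1 to 3 the count was 1, 12 and 4, where 0.735%, 32.9% and 4.5% of all genes were lower.

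Coregulators through which the receptors act were lower in part. Of 21 tested coregulators and SF-1 partners 6 fell, 15 did not pass and none rose (limma, 13 lower and 0 higher at an unadjusted p under 0.05), with a median log2 fold change of -0.49, and 12.7% of all genes fell. The coactivator gene NCOA3 fell by 1.07, the SUMO ligase gene PIAS1 by 0.70, CITED2, a partner of CBP and p300, by 0.70 and the Polycomb gene CBX2 by 0.37 on the log2 scale. After removal of the length and GC trend 5 were lower and 2 higher, against 9.75% and 10.1% of all genes, with the median at -0.15. CBX2 then had a log2 change of -0.15 (limma adjusted p = 0.121), no longer past the threshold. No member of the list was lower without any 1 shCtrl library or without shTPD52 replicate 1 (limma), where only 0.305% to 2.12% of all genes were. Leaving out shTPD52 replicate 3 gave 3 (4.5% of all genes) and shTPD52 replicate 2 gave 15 (32.9% of all genes).

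**Figure D4:**
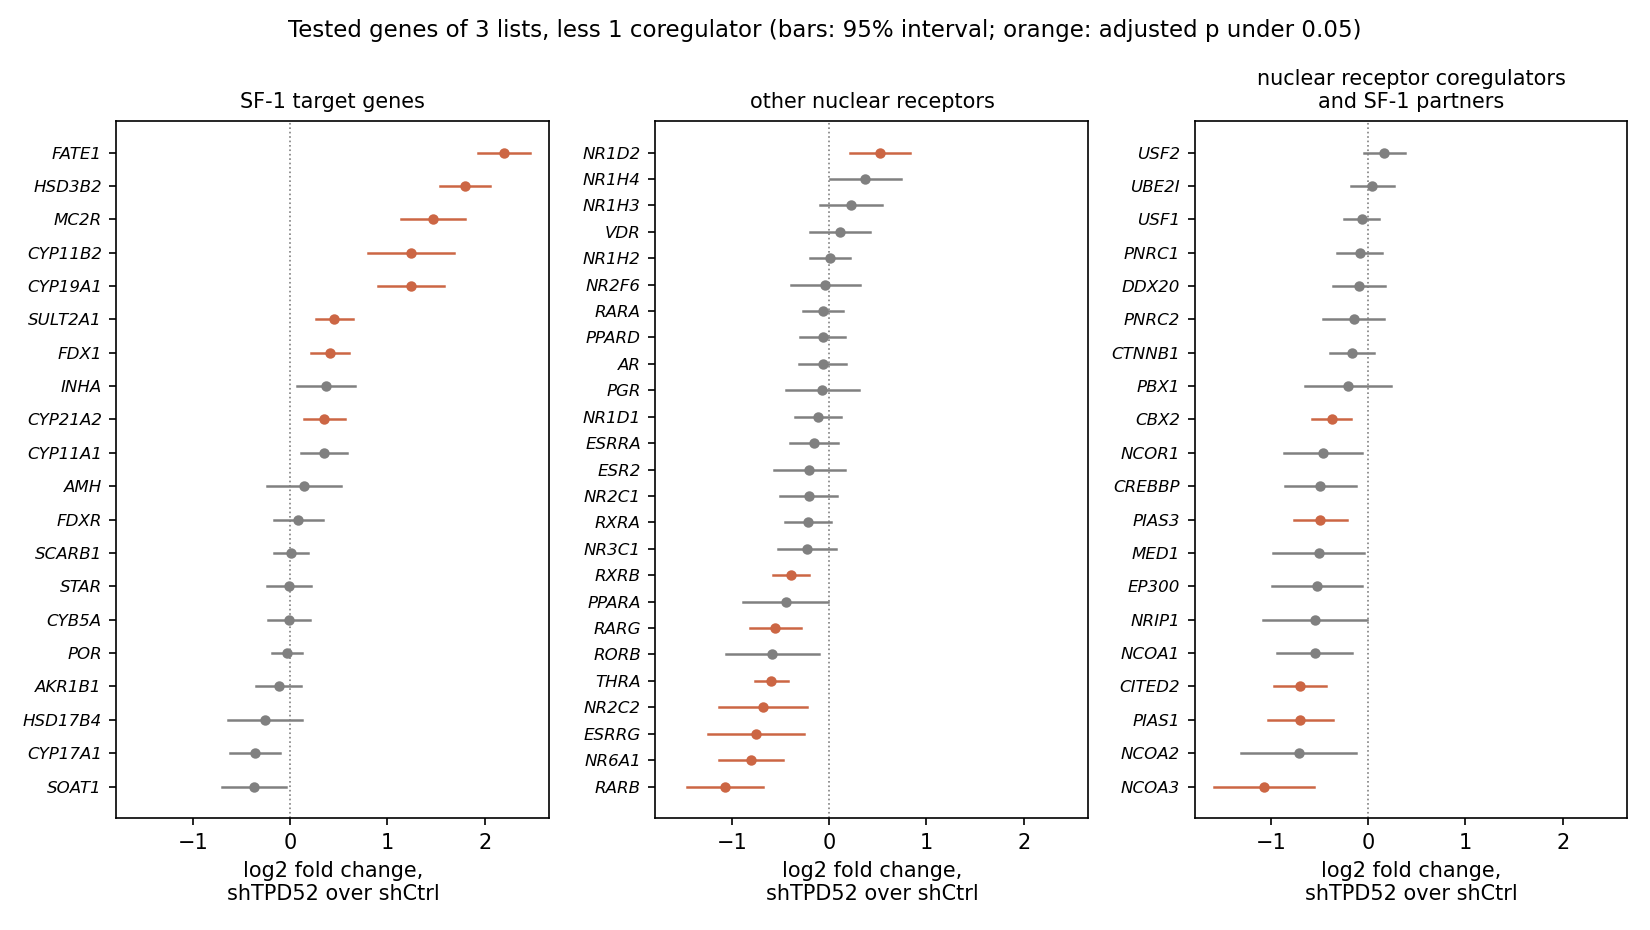
Log2 fold change of FPKM + 0.5, shTPD52 over shCtrl, with its 95% interval from limma (n = 3 each) for the tested genes of 3 lists, less 1 coregulator, orange where the adjusted p was under 0.05. FATE1 lies highest among the SF-1 targets, while the receptors and the coregulators reach down to -1.07 at RARB and at NCOA3.

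NR4A1 is itself an immediate early gene, and the others of that class give its setting. Of 14 tested immediate early genes 3 fell, 11 did not pass and none rose (limma, 6 lower and 1 higher at an unadjusted p under 0.05), with a median log2 fold change of -0.35, and 12.7% of all genes fell. The class did not move as 1, with a log2 fold change below 0 for 9 genes and above 0 for 5. DUSP1, a phosphatase of MAP kinases, fell by 0.70, JUN, a subunit of AP-1, by 0.61 and SGK1, a kinase induced by corticosteroids, by 0.59 on the log2 scale. All 3 were called after removal of the length and GC trend too. No member was lower without any 1 shCtrl library or shTPD52 replicate 1 (limma), where only 0.305% to 2.12% of all genes were. Without shTPD52 replicate 2, 8 members were lower, where 32.9% of all genes were. CAMKK2, which the series title names, had 4.85 ± 0.34 FPKM in controls and 4.64 ± 0.45 FPKM after knockdown (n = 3 each, limma adjusted p = 0.698).

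Among 10705 tested protein-coding genes, those with the profile most like NR0B1 over the 6 libraries were TRIM65, CRAT and OPLAH, with Pearson r of 0.998, 0.997 and 0.996. CRAT, carnitine acetyltransferase, showed the same tight steps, with 22.2 to 22.7 FPKM in shCtrl and 17.2 to 18.3 FPKM in shTPD52. For NR4A1 they were GRIN3A, LASP1 and KAT7, each with r of at least 0.999, and in all 3 shTPD52 replicate 2 stood between the controls and the other knockdown libraries. For NR5A1 they were FAAP20 (r = 0.993), ZNF385A (0.988) and FTL (0.985), and for GATA6 they were TTC23 (0.999), LRRC75A (0.991) and PROS1 (0.967). These were the highest of 10705 values over only 6 libraries in 2 groups, and they are given as a description.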

How the data were processed

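RNA of 3 shCtrl and 3 shTPD52 libraries was sequenced in pairs, per the labels' protocols. The authors deposited FPKM, reads scaled to gene length and library size, for 34869 genes. HISAT2 2.2.1, featureCounts 2.0.3 and GRCh38 are named in the submitters' processing notes. The sources used here give neither their roles nor the annotation release nor the strand setting. Symbols, coordinates and exon lengths came from GENCODE release 29 on GRCh38, matched by identifier, with a symbol for 34864 genes. The exon length of a gene, used for the quartiles and the length trend, is the union of its exons over all annotated transcripts.

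The 12782 genes averaging 1 FPKM or more across the 6 libraries were tested with limma 3.58.1 in R 4.3.3 on log2(FPKM + 0.5), without further scaling. Variance trend, two-sided p and Benjamini-Hochberg adjustment over all tested genes were used, with a threshold of 0.05. The fit was also run on simulated data with noise drawn independently for each gene and library. Those data held neither the length trend nor the shared deviation of shTPD52 replicate 2, so they cannot show how the fit handles these. The 17 alternatives were pseudocounts of 0.1 and 1, no filter or 5 FPKM, 3 other scalings, removal of each library's loess trend on length and GC content (span 0.3, 12707 genes), a robust prior, no variance trend, a block for the replicate number, and each library left out. Library totals were estimated from the steps of low FPKM values, of which 75.1% to 76.4% per library were whole reads within 0.02. Only 26.0% to 29.4% of these low counts were odd, as when both mates of a pair are counted, so the reads given stand for fewer fragments.

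The 10 genes and the lists were chosen with earlier results of these data known. One coregulator that the naming rule picks is not reported here. Genes named beside the 10 were TPD52, CAMKK2, up to 5 passing members of each list by p, 7 steroidogenic genes whatever their p, and the 3 protein-coding genes most correlated with NR5A1, NR0B1, NR4A1 and GATA6. NR1H2, NR1D2, GATA2, GATA3, ZFPM1, TH, PNMT, CHGA and genes overlapping a member fall outside this rule and were named after their values were seen. The labels do not say whether replicates were separate cultures, and the p-values reflect only how these libraries spread, which may be technical.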

Additional observations from a re-analysis of the deposited data

How the results depend on the processing

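Over 17 alternatives NR0B1 kept a log2 fold change between -0.71 and -0.55 and NR4A1 between -0.83 and -0.38. The members called lower, 2 with all libraries, numbered 1 without a filter and 1 after removal of the length and GC trend, and 0 to 4 when 1 library was left out. No member was called higher in any of the 17. Over all genes, those called higher, 720 with the deposited scaling, numbered 177 without a filter, 1083 with median-ratio scaling, 1152 with quantile normalization and 1288 after removal of the length and GC trend, and 48 to 1616 when 1 library was left out. Those called lower, 1621 with the deposited scaling, numbered 354, 1038, 1188 and 1239 under the same settings, and 39 to 4209. Median-ratio scaling moved the median of all tested genes from -0.11 to 0.00054.

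Values that did not pass turned sign as follows, with the cause not tested. With quantile normalization NR5A1 had a log2 fold change of -0.054, GATA4 of 0.049, GATA6 of 0.11 and CAMKK2 of 0.083. With median-ratio scaling GATA4 had 0.011, GATA6 0.070, STAR 0.11 and CAMKK2 0.051. After removal of the length and GC trend they had 0.068, 0.060, 0.062 and 0.18, and rescaled outside mitochondrial genes GATA6 had 0.034, STAR 0.069 and CAMKK2 0.010. With 1 library left out the values ran from -0.010 to 0.077 for NR5A1, -0.17 to 0.051 for GATA6, -0.10 to 0.047 for STAR and -0.12 to 0.0038 for CAMKK2.

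Same-numbered libraries share only a number in the labels. Their deviations from the group means correlated at 0.0451, 0.248 and 0.0223, and shCtrl replicate 1 correlated more with shTPD52 replicate 3 (0.283). With the replicate block 906 of all 12782 tested genes were higher and 2158 lower, against 720 and 1621 without it. With the block 3 members were lower, NR2F2 being added (limma adjusted p = 0.0229). Of 21 coregulators, 14 immediate early genes and 20 SF-1 targets, 11, 5 and 1 were called lower with the block. Without it these counts were 6, 3 and 0, and calls over all genes were fewer too.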
